A study of Mus musculus with 14 samples.

Results

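The miR-30 family was examined in small extracellular vesicles (membrane-bound particles shed by cells). Its members were 10 mature names, mmu-miR-30a-5p, mmu-miR-30a-3p, mmu-miR-30b-5p, mmu-miR-30b-3p, mmu-miR-30c-5p, mmu-miR-30c-2-3p, mmu-miR-30d-5p, mmu-miR-30d-3p, mmu-miR-30e-5p and mmu-miR-30e-3p, matched by name to the deposited table. All 10 were present among its 1695 names, and the prefix mmu- is dropped from here on. MicroRNAs (miRNAs) are short RNAs that guide repression of messenger RNAs. The vesicles came from primary neutrophils, bone marrow cells selected for Ly6G from WT female BALB/c mice, kept for 48 h. One group received the solvent DMSO and the other 10 µM 27HC, the cholesterol metabolite 27-hydroxycholesterol. Each group had 7 libraries, numbered 1 to 7. The description of each library also carries a pair of consecutive numbers, the same pairs in both groups, with no meaning stated. The labels do not say whether a library pools animals, or whether the libraries came from separate mice, so p-values measure the spread between these libraries. The comparison asks how 27HC changes the vesicle cargo, in a study of what the vesicles do to breast cancer cells.

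A miRNA hairpin yields a strand from each arm, named 5p and 3p. In the miR-30 hairpins the 5p strand is the usual guide, which is loaded into Argonaute and pairs with targets through its seed, bases 2 to 8. The family is known to hold back epithelial-mesenchymal transition through targets such as Snai1, and to limit self-renewal of breast tumour-initiating cells. Its hairpins lie in neighbouring pairs, Mir30d with Mir30b, Mir30e with Mir30c-1, and Mir30a with Mir30c-2, and each pair can be made from a shared primary transcript.

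The mature sequences below, from the RefSeq table for GRCm38.p6, show which members share a seed, given in capitals and read 5′ to 3′. RefSeq sequences were matched for 6 of the 10 members.
miR-30a-5p: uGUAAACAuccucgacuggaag
miR-30e-5p: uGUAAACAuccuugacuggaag
miR-30c-5p: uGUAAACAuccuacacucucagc
miR-30a-3p: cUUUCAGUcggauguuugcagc
miR-30e-3p: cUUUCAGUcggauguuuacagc
miR-30c-2-3p: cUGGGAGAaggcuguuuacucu

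The 3 guides share the seed GUAAACA and differ only after it. miR-30a-5p and miR-30e-5p differ by 1 of 22 bases, the substitution C13U, with positions counted from the 5′ end of the first named. Both differ from miR-30c-5p at 5 of the 22 bases compared. The other strands fall into separate seed groups: miR-30a-3p and miR-30e-3p share UUUCAGU and differ by G18A alone. Among all names with a sequence in the table, the guide seed was found in 1 more, miR-384-5p, which held 2 counts over all 14 libraries. miR-30c-2-3p shares its seed with miR-30c-1-3p, the partner strand from the other Mir30c hairpin, which held 20 counts, and with miR-6958-5p. How the authors assigned reads that fit more than 1 name is not given in the sources used here, so counts of miR-30a-5p and miR-30e-5p, or of their 3p strands, may be shared to an unknown extent. Some names outside the family had the same values as each other, as given below with the test.

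A pair of hairpins is shown because they give almost the same guide yet differed widely in counts. Capitals mark the 5p and 3p strands, in that order.
Mir30e: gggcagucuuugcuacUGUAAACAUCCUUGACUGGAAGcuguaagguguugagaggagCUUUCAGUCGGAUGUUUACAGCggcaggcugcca
Mir30a: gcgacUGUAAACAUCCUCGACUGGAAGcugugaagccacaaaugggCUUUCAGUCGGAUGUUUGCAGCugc

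In GRCm38.p6, Mir30e lies at chr4:120772606-120772697 on the minus strand, 2983 bases from Mir30c-1, and both sit in introns of Nfyc in GENCODE M21. Mir30a lies at chr1:23272269-23272339 on the plus strand, 19361 bases from Mir30c-2, which overlaps an exon of the non-coding gene Gm27028. The deposited table holds no positions and the submitters' processing notes name GRCm39, so these places belong to the annotation only. The miRNA Mir30f is annotated on the strand opposite to Mir30e, and its mature name held 10 counts.

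Library totals ran from 112914 to 871189 counts, and a count of 0 allows up to 3 counts, which is 3.44 to 26.6 CPM across libraries (CPM are counts scaled to a common library size). The miRNAs listed as myeloid, led by miR-223-3p and miR-142a-3p, summed to 83291 to 216664 CPM in DMSO and 113054 to 149157 CPM in 27HC libraries, and 2 of the 4 were lower with 27HC (miR-142a-3p and miR-142a-5p), where 8.79% of the 239 tested names were. Of the 3 lymphoid miRNAs 2 were lower (miR-150-5p and miR-155-5p), and of the tested names in the other marker lists 0 were called. Only 2 of 5 erythroid, 2 of 5 stromal and 3 of 6 epithelial names had enough counts to be tested. Markers of other cells were also present: the liver miRNA miR-122-5p stood at 1895 to 4587 CPM, and the endothelial, stromal, epithelial, erythroid, lymphoid and muscle lists summed to between 134 and 2127 CPM in every library. Vesicle RNA gives no protein markers, so Ly6G itself could not be checked, and fewer vesicles of a type cannot be told apart from less miRNA per vesicle.

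The family was made up almost wholly of 5p strands. They held 99.4% of all miR-30 counts, 55258 of them against 355 counts for the 5 listed 3p strands. Together the 10 members took 1.36 ± 0.137% of all counts with DMSO and 1.34 ± 0.250% with 27HC (SD, n = 7 libraries each). The lowest, median and highest shares were 1.18%, 1.38% and 1.54% with DMSO, and 1.04%, 1.34% and 1.72% with 27HC, so the 27HC range contained the whole DMSO range. In replicates 5 to 7, described below, the 3 shares were 1.18% to 1.38% with DMSO and 1.04% to 1.17% with 27HC. This gap was not tested, and an exact permutation of 3 against 3 libraries cannot go under p 0.1. The share also depends on the total, in which miR-3473b and miR-3473e were higher with 27HC. The difference between group means was −0.017 percentage points with these 2 names in the total and 0.044 without them.

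miR-30d-5p was the main member, with 60.4% to 73.5% of the miR-30 counts in a library. It ranked between 11 and 20 among all names in every library. miR-30e-5p followed with 21.5% to 32.6% of miR-30 counts and ranks from 31 to 42. These 2 guides together made up 91.96% to 95.3% of the family in each library. miR-30a-5p held 2.39% to 4.84%, miR-30c-5p 1.39% to 2.89% and miR-30b-5p 0.288% to 1.41%. The order of counts, miR-30d-5p, miR-30e-5p, miR-30a-5p, miR-30c-5p, miR-30b-5p, was the same in 13 of the 14 libraries. In the other one, 27HC replicate 5, miR-30a-5p and miR-30c-5p both had 35 counts. In CPM the ranges of miR-30a-5p and miR-30c-5p overlapped in both groups. Those of miR-30c-5p and miR-30b-5p did not overlap with 27HC, and with DMSO the highest miR-30b-5p library (218 CPM) was just above the lowest miR-30c-5p library (216.5 CPM). miR-30d-5p, miR-30e-5p and miR-30a-5p did not overlap.

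**Figure D1:**
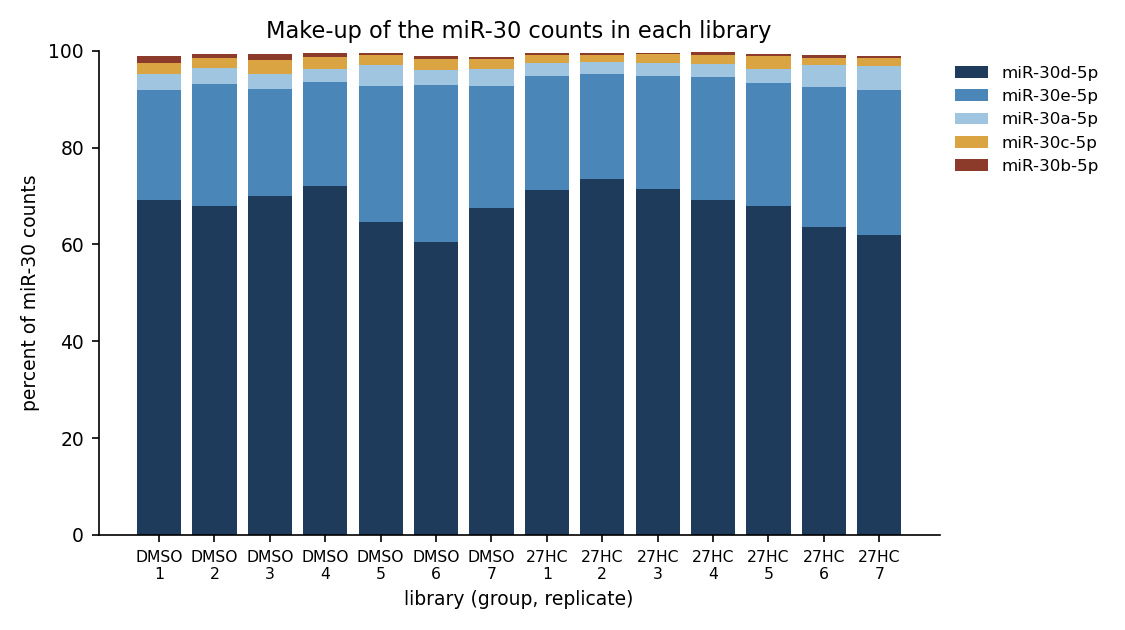
Bars give the percent of all miR-30 counts held by each of the 5 guides, 1 bar per library (x axis, group and replicate), and the gap to 100% is the 3p strands. miR-30d-5p fills 60.4% to 73.5% of each bar and miR-30e-5p 21.5% to 32.6%.

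The test of 27HC against DMSO was edgeR's quasi-likelihood test over 239 names left by a filter for low counts. All 5 guides passed it and all 5 of the listed 3p strands did not. At a Benjamini-Hochberg adjusted p under 0.05, edgeR called 0 of the 5 guides, where 12.6% of the tested names were called. These were 30 names, 21 lower (8.79%) and 9 higher (3.77%) with 27HC. DESeq2 and limma-voom, also with treatment as the only term, called 0 of the 5. edgeR fits with a replicate term, given below, called miR-30b-5p. At an unadjusted p under 0.05, edgeR with treatment only had 1 of the 5, miR-30b-5p, where 22.2% of tested names were. The median log2 fold change of the 5 was −0.092, against 0.010 over all tested names. Some tested names had the same values, such as miR-199a-3p and miR-199b-3p (DMSO mean 567 CPM and log2 fold change 0.039 each). Among called names, let-7a-5p and let-7j were nearly the same, with DMSO means of 4194 and 4193 CPM. The shares of tested names therefore count some signals more than once.

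miR-30d-5p, the most abundant guide, had a lowest, median and highest level of 6798, 9299.6 and 12142.5 CPM in DMSO libraries. With 27HC these were 6908, 10568 and 11774 CPM. The groups overlapped almost completely. The log2 fold change was 0.018 (SE 0.17), with a 95% interval from −0.35 to 0.38, a fold between 0.787 and 1.30 (edgeR adjusted p 0.980).

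miR-30e-5p, which in breast cancer cells is known to act on Itgb3 and Ubc9, stood at 2937, 3619.6 and 3954 CPM with DMSO (lowest, median, highest). It stood at 2637, 3452 and 3906 CPM with 27HC. Its log2 fold change of 0.010 (SE 0.10) had the narrowest interval of the 5 guides, from −0.21 to 0.23, or a fold between 0.867 and 1.17 (edgeR adjusted p 0.980). The direction of these near-zero values of miR-30d-5p and miR-30e-5p turned with upper quartile scaling, without a filter on low counts and in replicates 5 to 7 alone, and for miR-30d-5p also without DMSO replicate 6 or 27HC replicate 3. Upper quartile scaling moved the median of all tested names to −0.081, and leaving out the filter moved it to −0.19.

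miR-30a-5p, the near twin of miR-30e-5p, had 341, 473 and 521 CPM with DMSO and 280.6, 399 and 558 CPM with 27HC. For this guide the 27HC libraries spanned the whole DMSO range, and the log2 fold change was −0.092 (SE 0.16, 95% interval −0.42 to 0.24, edgeR adjusted p 0.820). Its sign turned when names needed a mean count of at least 100, in replicates 5 to 7 alone and without 27HC replicate 5. Counts of miR-30e-5p were 6.20 to 10.7 times those of miR-30a-5p in DMSO libraries, with a median of 7.32. With 27HC they were 6.19 to 9.77 times, with a median of 9.11.

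miR-30c-5p, made from both Mir30c hairpins, stood at 216.5, 311 and 476 CPM with DMSO and 153, 251 and 291 CPM with 27HC. All 7 libraries with 27HC lay under the DMSO median, and 2 lay under the lowest DMSO library, so the groups overlapped, as they did for all 5 guides where 5.44% of tested names had groups apart. The log2 fold change was −0.42 (SE 0.21), with a 95% interval from −0.87 to 0.026, and it did not pass the threshold (edgeR unadjusted p 0.0629, adjusted p 0.243).

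miR-30b-5p, the least abundant guide, had the lowest fold change of the 5. Its level was 48.1, 122.5 and 218 CPM in DMSO libraries and 40.1, 61.2 and 92.3 CPM in 27HC libraries. All 7 libraries with 27HC lay under the DMSO median and 3 of them under the lowest DMSO library. These levels rest on 6 to 160 counts per DMSO library and 5 to 39 per 27HC library. The log2 fold change was −0.96 (SE 0.35), with a 95% interval from −1.69 to −0.22 that does not reach 0, and an edgeR adjusted p of 0.0961. Among fits without 1 library, its adjusted p ran from 0.0539 to 0.301 and its log2 fold change from −1.06 to −0.66, the latter without DMSO replicate 3, the deepest library.

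**Figure D2:**
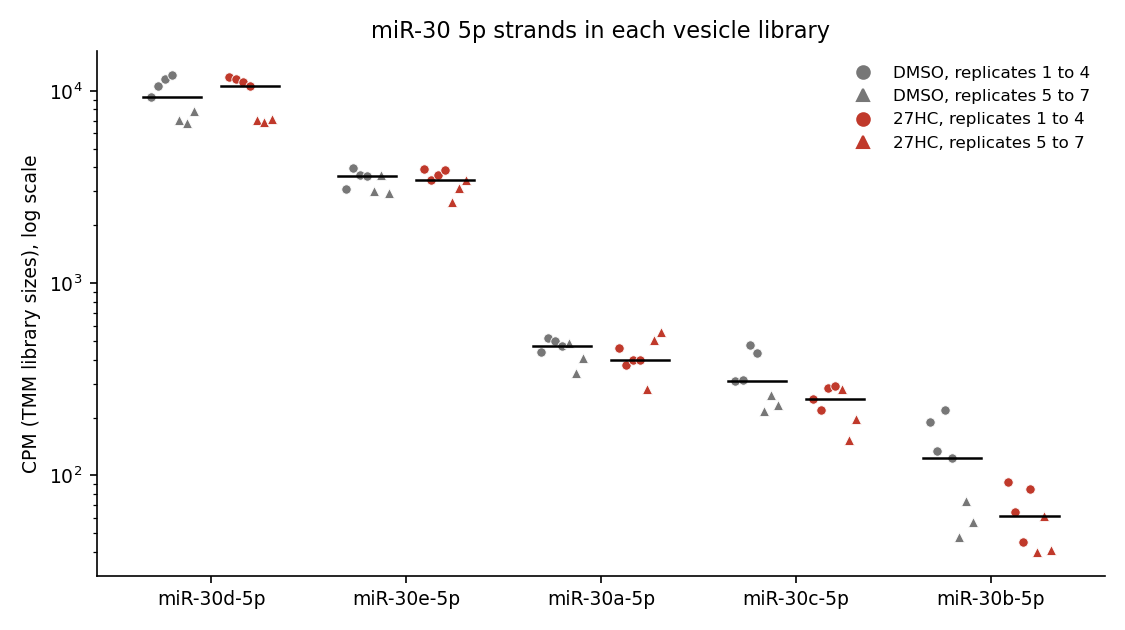
Points are the 14 libraries, with CPM on a log axis for each guide (x axis), grey for DMSO and red for 27HC, circles for replicates 1 to 4 and triangles for replicates 5 to 7, and lines mark group medians. miR-30d-5p splits by circle and triangle in both groups, while for miR-30b-5p all red points lie under the DMSO median of 122.5 CPM.

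The libraries also differed by replicate number. Earlier results of these data showed replicates 1 to 4 apart from replicates 5 to 7 in both treatments, and the labels do not say what the numbers mark. miR-30d-5p was separated by this split and not by treatment. It stood at 9299.6 to 12142.5 CPM in the 8 libraries of replicates 1 to 4 (median 11339) and at 6798 to 7859 CPM in the 6 libraries of replicates 5 to 7 (median 7043). The sets did not overlap, as for 6.69% of tested names in either direction. Of the 239 tested names, 1.67% were higher in every library of replicates 1 to 4, namely miR-30d-5p, miR-140-3p, miR-425-5p and miR-503-5p. Within replicates 1 to 4, miR-30d-5p ranged from 9299.6 to 12142.5 CPM with DMSO and from 10568 to 11774 CPM with 27HC. Within replicates 5 to 7 it ranged from 6798 to 7859 CPM and from 6908 to 7143 CPM.

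The other guides overlapped between the sets. miR-30e-5p stood at 3077 to 3954 CPM in replicates 1 to 4 and 2637 to 3663 CPM in replicates 5 to 7, and miR-30a-5p at 376 to 521 CPM and 280.6 to 558 CPM. Several measures moved with the sets. Totals were 229324 to 871189 counts in replicates 1 to 4 and 112914 to 252014 counts in replicates 5 to 7. Summed myeloid markers were 116742 to 216664 CPM against 83291 to 135673 CPM, the 5 stromal markers 461 to 1067 CPM against 734 to 1291 CPM, and miR-122-5p 1895 to 3307 CPM against 3175 to 4587 CPM. Their part in the level of miR-30d-5p was not tested.

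The tested name whose profile over the 14 libraries lay closest to that of miR-30d-5p was miR-425-5p. The root-mean-square difference of their centred log2 CPM was 0.11. The spread of miR-30d-5p itself was 0.33 and the median difference over the tested names was 0.53. miR-140-3p and miR-10a-5p followed at 0.16 and 0.17. All 3 were chosen for closeness to a profile that splits by set. Their higher level in replicates 1 to 4 is therefore not a separate result. Medians in replicates 1 to 4 and in replicates 5 to 7 were 4571 and 3258 CPM for miR-425-5p, 1506 and 1076 CPM for miR-140-3p. They were 14099.8 and 10639 CPM for miR-10a-5p.

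Among DMSO libraries 3 guides, miR-30b-5p, miR-30c-5p and miR-30d-5p, were higher in every library of replicates 1 to 4 than in any of replicates 5 to 7, as were 17.2% of tested names. miR-30b-5p stood at 122.5 to 218 CPM and at 48.1 to 73.95 CPM there, and miR-30c-5p at 311 to 476 CPM and at 216.5 to 262 CPM. Among 27HC libraries miR-30b-5p stood at 44.9 to 92.3 CPM and at 40.1 to 61.2 CPM. In replicates 1 to 4 the treatments did not overlap for miR-30b-5p or for miR-30c-5p, which stood at 218 to 291 CPM with 27HC. In that set 21.8% of tested names did not overlap, 15.1% with 27HC lower. In replicates 5 to 7 both guides overlapped between treatments.

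miR-30b-5p was called lower with 27HC in a fit with a term for the set and in a fit of replicates 1 to 4 alone. These 2 fits share the libraries of replicates 1 to 4, so they are not separate results. The fit with treatment only did not call it (edgeR adjusted p 0.0961). With a term for the set, edgeR gave miR-30b-5p −0.91 on the log2 scale (SE 0.25, adjusted p 0.0168). It was the 1 guide called there, where 16.3% of the 239 names were called and 10.9% were lower. In replicates 1 to 4 alone it was −1.11 (SE 0.30, edgeR adjusted p 0.0249), where 17.4% of 242 names were called and 10.7% were lower. In replicates 5 to 7 alone miR-30b-5p did not pass the filter, so its value there is the CPM range above, and 0 of the 4 guides tested were called, where 6.06% of 198 names were. miR-30c-5p was at −0.49 in replicates 1 to 4 (SE 0.20, edgeR adjusted p 0.118) and at −0.16 in replicates 5 to 7 (SE 0.29, edgeR adjusted p 0.847), and was not called.

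An interaction term, fitted over all tested names, asked whether 27HC acted differently in replicates 5 to 7. edgeR called 0 names (0.0%) there, with 24 names (10.0%) at an unadjusted p under 0.05. For miR-30b-5p it was 0.85 (SE 0.51, edgeR unadjusted p 0.114, adjusted p 0.514), so the sets were not shown to differ. Both miR-30d-5p and miR-30e-5p had interaction values under 0, −0.085 (SE 0.14) and −0.12 (SE 0.17), with edgeR adjusted p-values of 0.863 and 0.846.

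**Figure D3:**
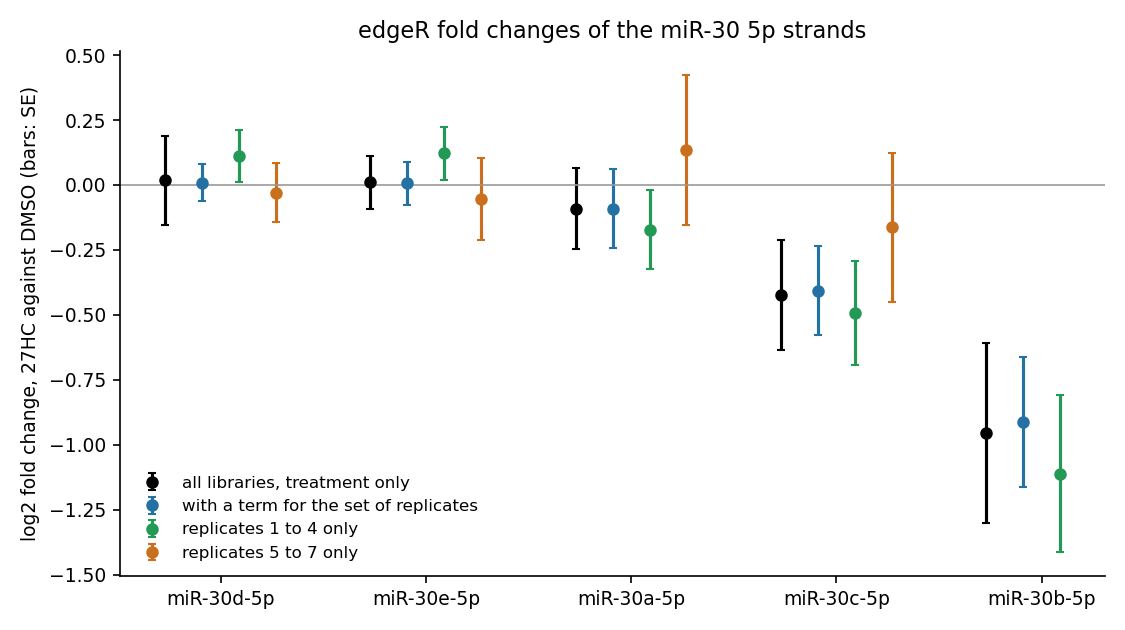
Points are edgeR log2 fold changes of 27HC against DMSO (y axis, bars are the SE) for each guide in 4 fits: all libraries, all libraries with the set as a term, replicates 1 to 4 only and replicates 5 to 7 only. miR-30d-5p and miR-30e-5p stay within 0.13 of 0 on the log2 scale in these fits, and miR-30b-5p, not tested in replicates 5 to 7, lies between −1.11 and −0.91.

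Ratios of counts within a library do not depend on its scaling, and 3 ratios between guides of neighbouring hairpins were compared. The test was two-sided and permuted libraries exactly, with p-values adjusted over the 3. The ratio of miR-30d-5p to miR-30b-5p, whose hairpins neighbour each other, was higher with 27HC. In DMSO libraries miR-30d-5p had 48.5, 88.6 and 135.0 times the counts of miR-30b-5p (lowest, median, highest). With 27HC it had 106, 158 and 235 times as many. The log2 ratio was 6.41 ± 0.586 with DMSO and 7.22 ± 0.382 with 27HC (SD, n = 7 each). The difference was 0.82 (exact permutation p 0.00874, adjusted 0.0262). DMSO replicates 5 and 7 lay within the range of the 27HC libraries, and the other 5 lay under it. The ratio is not a result separate from miR-30b-5p, since the log2 fold change was 0.018 for miR-30d-5p and −0.96 for miR-30b-5p. The latter was not called (edgeR adjusted p 0.0961) and rests on 5 to 39 counts per 27HC library.

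The 2 sets gave different sizes. In replicates 1 to 4 the log2 ratio was 5.60 to 6.61 in DMSO and 6.93 to 7.88 in 27HC libraries, a difference of 1.24, with an exact permutation p of 0.0286, the smallest that 4 against 4 libraries allow. In replicates 5 to 7 it was 6.47 to 7.08 and 6.73 to 7.32, a difference of 0.25 (exact permutation p 0.5, and 3 against 3 libraries cannot go under 0.1). The difference between these sets was not tested for the ratio. With libraries permuted only within the sets the exact p was 0.01 (adjusted 0.03). Leaving out 27HC replicate 2, 3 or 7 gave adjusted exact permutation p-values of 0.0559, 0.0594 and 0.0507, above the threshold of 0.05.

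The other ratios did not pass the threshold with all libraries. miR-30e-5p had 7.65, 12.6 and 13.9 times the counts of miR-30c-5p in DMSO and 9.28, 15.5 and 19.98 times with 27HC. The log2 difference was 0.40 (exact permutation p 0.0571, adjusted 0.0857), and it was 0.59 in replicates 1 to 4 and 0.14 in replicates 5 to 7 (exact permutation p 0.0286 and 0.8, adjusted 0.0429 and 0.8). Without 27HC replicate 5 it was 0.50, which passed (adjusted exact permutation p 0.0253). miR-30a-5p had 1.05, 1.41 and 2.24 times the counts of miR-30c-5p in DMSO and from equal counts to 3.24 times, with a median of 1.72, with 27HC. This was a log2 difference of 0.29 (exact permutation p 0.305, adjusted 0.305). Since miR-30c-5p is made from both Mir30c hairpins, neither of these ratios is of a single primary transcript.

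**Figure D4:**
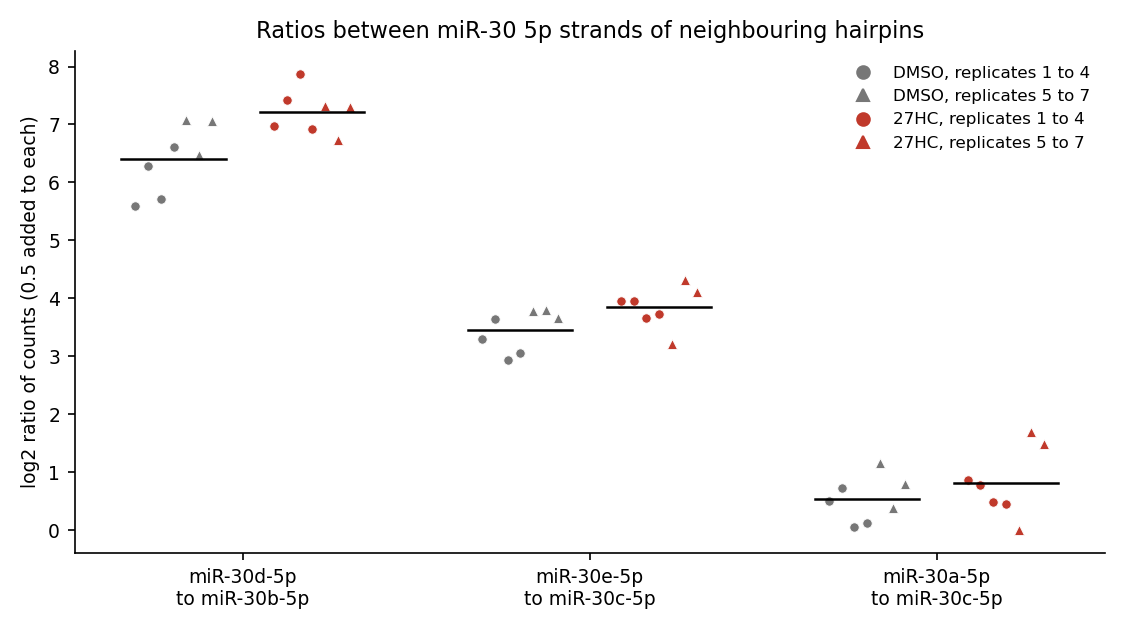
Points are log2 ratios of counts in each library for 3 pairs of guides, grey for DMSO and red for 27HC, circles for replicates 1 to 4 and triangles for replicates 5 to 7, with lines at the group means. For miR-30d-5p to miR-30b-5p the means are 6.41 and 7.22, and the grey circles lie lowest, between 5.60 and 6.61.

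The 3p strands were scarce. miR-30e-3p held 120 counts over the 14 libraries, miR-30a-3p and miR-30d-3p 111 counts each, miR-30c-2-3p 9 counts and miR-30b-3p 4 counts. Over all libraries pooled, 3p counts were 6.13% of the counts of miR-30a, 0.890% of miR-30e and 0.287% of miR-30d. So although miR-30a-3p and miR-30d-3p had the same total, their guides differed from 1699 to 38553 counts. By library, miR-30a ran from 1.73% to 19.3% with DMSO and from 1.23% to 11.7% with 27HC. For miR-30e these were 0.264% to 1.93% and 0% to 1.17%, so miR-30a and miR-30e overlapped with DMSO. Differences between hairpins were not tested, and miR-30a-3p and miR-30e-3p may share counts. For miR-30c, whose guide cannot be split by hairpin, the 2 known 3p names together held 2.36%. A ratio of arms was to be tested only where both passed the filter, which no hairpin met.

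The listed 3p strands can therefore be given as counts and as values of a fit without the filter, in which 1.59% of 1695 names were called. That fit called 0 of the 5. miR-30e-3p had 1, 11 and 32 counts in DMSO libraries (lowest, median, highest) and 0, 4 and 9 in 27HC libraries, or medians of 43.6 and 19.96 CPM. All 7 libraries with 27HC lay under the DMSO median, and the log2 fold change was −1.19 (SE 0.53, edgeR unadjusted p 0.0239, adjusted p 0.334). miR-30a-3p had 3, 7 and 29 counts with DMSO and 1, 5 and 9 with 27HC (log2 fold change −0.45, SE 0.52, edgeR adjusted p 0.719). miR-30d-3p had 2, 8 and 20 counts with DMSO and 2, 7 and 13 with 27HC (log2 fold change −0.035, SE 0.51, edgeR adjusted p 0.981).

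miR-30c-2-3p was seen in 4 DMSO libraries and 1 library with 27HC, with at most 3 counts. miR-30b-3p, the partner strand of miR-30b-5p, was seen only in DMSO replicate 3, with 4 counts. At these counts a difference between the groups was not detectable. The same measure of profile was taken for miR-30e-3p on log2 of CPM plus 10. Its closest names were miR-361-3p, miR-29b-3p and miR-142a-5p at 0.51, 0.60 and 0.61, against a median of 0.90 over the tested names. The spread of miR-30e-3p itself was 0.79, so these names were not much closer than a flat profile, and this strand had 0 to 32 counts per library.

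**Figure D5:**
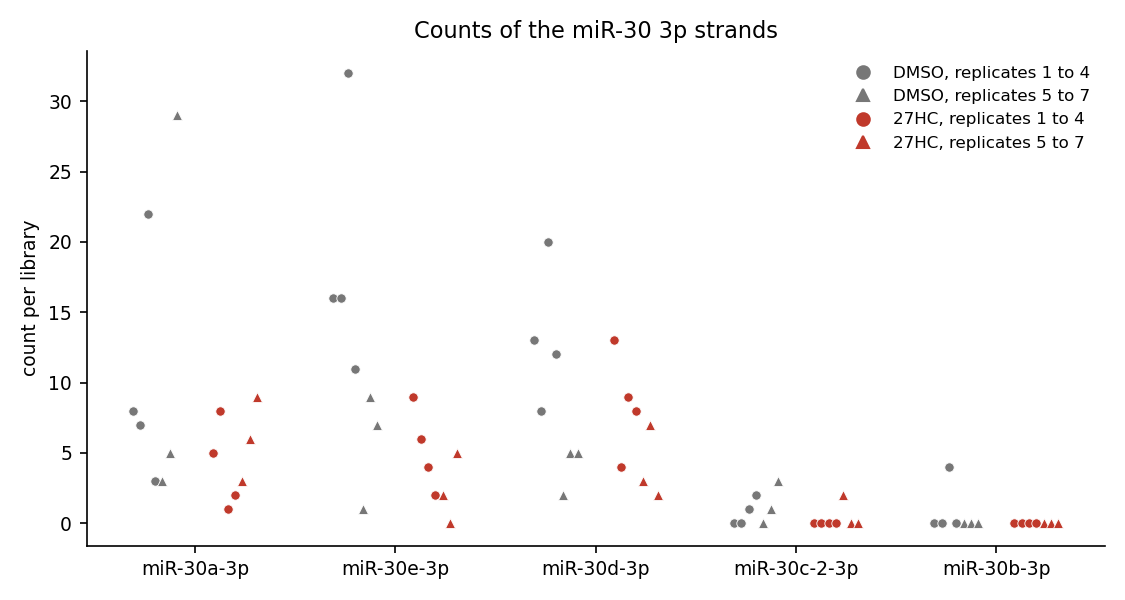
Points are counts per library (y axis) of the 5 listed 3p strands, grey for DMSO and red for 27HC, circles for replicates 1 to 4 and triangles for replicates 5 to 7. No library exceeds 32 counts for any strand, and miR-30b-3p is above 0 in 1 library only.

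Other miRNAs known to hold back epithelial-mesenchymal transition or stemness, from the let-7, miR-200, miR-205 and miR-34 families, were set beside the miR-30 guides. Of 18 listed names 13 were tested, 0 were higher and 3 were lower with 27HC at an edgeR adjusted p under 0.05 (let-7a-5p, let-7f-5p and let-7g-5p). Over all 239 tested names 8.79% were lower and 3.77% higher. The 3 called names are all let-7. Of the miR-200, miR-205 and miR-34 names, only miR-141-3p, miR-200c-3p, miR-205-5p and miR-34a-5p were tested, and none of these was called. The other names of these families did not pass the filter, so they could not be called. How reads that fit more than 1 name were assigned is not given, so these 3 may share counts. The 13 log2 fold changes had a median of −0.23 and ran from −0.61 to 0.48. The summed level of the 18 names was 17030 to 23627 CPM in replicates 1 to 4 and 24265 to 28289 CPM in replicates 5 to 7. These sets were apart, in the opposite direction to miR-30d-5p, where 6.69% of single tested names were apart in either direction. The sum was led by let-7i-5p and let-7a-5p, with DMSO means of 6591 and 4194 CPM. For miR-34a-5p, miR-141-3p, miR-200c-3p and miR-205-5p the DMSO means were 51.5 to 521 CPM, so the sum mostly describes let-7.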

How the data were processed

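The authors deposited raw counts per mature miRNA name, whole numbers in 14 libraries and 1695 names. Per the labels, the miRNeasy Micro kit gave the RNA and the QIAseq miRNA kit the libraries. The submitters' processing notes name GRCm39, R 4.1.2, edgeR and limma. The aligner, the counting rule and the use of molecular identifiers are not given in the sources used here, so a count may be a read or a molecule. Every row and column was matched to a label (0 unmatched).

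Counts were tested with edgeR 4.0.16 in R 4.3.3, with treatment as the only term, TMM scaling and filterByExpr (minimum count 10, minimum total 15), which kept 239 names and 99.4% of counts. CPM values use TMM library sizes of the kept names. The SE is the log2 fold change over the root of its F. The threshold was a Benjamini-Hochberg adjusted p under 0.05. The fit was tested on simulated counts that had the same spread setting for all names and no sets of replicates. It called 18 of 28 tested names changed 2-fold and 32 of 32 changed 4-fold, with 1 unchanged name called each time. With no change simulated it called 0. Ratios added 0.5 to each count and used all 3432 splits of 7 and 7 libraries, with a smallest p of 0.000583. The members, lists and the split of replicates were chosen with earlier results of these data known. Every member is named, and profiles closest to the most abundant 5p and 3p members were ranked by a fixed rule. Alternatives covered scaling, filter, tool (DESeq2 1.42.0, limma 3.58.1), replicate terms, pseudocounts and each library left out. Intervals and floors cover counting error or library spread only.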

Additional observations from a re-analysis of the deposited data

Results flagged for a closer look

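In 27 groups of 7 libraries, covering member levels, ratios and the family's share of counts, 3 had 1 library well apart from the rest. For continuous values about 1 in 20 groups is marked by chance, or 1.35 here. That rate does not hold for a strand counted in only 1 library of a group, which is always marked. This was so for miR-30b-3p and miR-30c-2-3p, so the 3 cannot be set against 1.35. miR-30a-3p reached 97.2 CPM (29 counts) in DMSO replicate 7, while the next DMSO library had 30.4 CPM. miR-30b-3p stood at 5.45 CPM in DMSO replicate 3, from 4 counts, with every other DMSO library at 0. miR-30c-2-3p reached 16.03 CPM (2 counts) in 27HC replicate 5, with every other 27HC library at 0. All 3 are scarce 3p strands, and none enters a called result.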

How the results depend on the processing

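The number of miR-30 members called was 0 with all libraries and treatment only, and 1 (miR-30b-5p) with the replicate block, with the set as a term and in replicates 1 to 4 alone. Over the fits without 1 library it stayed at 0. The cause was not tested. The log2 fold changes of miR-30b-5p and miR-30c-5p kept their direction in all alternatives that tested them. For miR-30d-5p it was −0.065 with upper quartile scaling, −0.088 without a filter and −0.029 in replicates 5 to 7, and from −0.067 (without DMSO replicate 6) to 0.15 without 1 library, with −0.015 without 27HC replicate 3. For miR-30e-5p these were −0.072, −0.079 and −0.055. For miR-30a-5p it was 0.0075 with a mean count of at least 100 and 0.14 in replicates 5 to 7, and from −0.17 to 0.049 without 1 library (the latter without 27HC replicate 5).

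The difference, 27HC minus DMSO, in the log2 ratio of miR-30d-5p to miR-30b-5p was 0.25 in replicates 5 to 7, where 3 against 3 libraries cannot pass the threshold, and from 0.68 to 0.93 without 1 library. That of miR-30e-5p to miR-30c-5p passed the threshold in replicates 1 to 4, at 0.59, and ran from 0.31 to 0.50 without 1 library. The count of all names called was 12 in replicates 5 to 7, with fewer libraries and 198 names tested, and from 21 to 34 without 1 library. The difference in the family's share of counts, 27HC minus DMSO, was −0.017 percentage points with all libraries. Without miR-3473b and miR-3473e in the total it was 0.044. In replicates 5 to 7, with 3 libraries per group, it was −0.14, and in replicates 1 to 4 it was 0.078. None of these was tested.

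Replicate numbers are shared by both groups, but what they mark is not stated. Deviations of same-numbered libraries correlated from 0.069 to 0.60 over tested names, with 6 of 7 pairs over 0.1, and 6 of the 14 libraries correlated best with their own number. With the replicate block 37 names (15.5%) were called against 30, miR-30b-5p had a log2 fold change of −0.92 (edgeR adjusted p 0.0401), and the ratio of miR-30d-5p to miR-30b-5p had an exact p of 0.0156 (adjusted 0.0469). The block changed no other call of the guides or ratios. The test of the ratio of 5p to 3p strands was not run, since no 3p strand passed the filter. Depth limits the 3p strands and miR-30b-5p.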
